A study of Mus musculus with 6 samples.

Results

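The collagen and laminin chains of the mouse neocortex were described from the mRNA levels of 6 RNA-seq libraries. A gene was a member if its symbol in the table of all 6 libraries was Col, a number, a and a number, or Lama, Lamb or Lamc and a number, which gave 35 of the 13299 genes, 26 collagen genes and 9 laminin genes. The symbols alone chose them from the genes of the table. In all 13299 of these the mean of at least 1 genotype reached 0.5 FPKM (a level defined below), so scarcer chains could not be members. The libraries were made from the flash-frozen neocortex of 3 HuD KO (*Elavl4*-/-) male mice and 3 wildtype male littermates (controls) of the strain C57BL/6, at about 3 to 4 months of age. In HuD KO mice exon 2 of *Elavl4*, the gene of the neuronal RNA-binding protein HuD, is replaced by a PGK-Neo cassette in all cells. The study asked how loss of HuD changes mRNA processing in the cortex, and the values here are levels of whole genes. By what their proteins build, the members were put into 9 fibrillar chains, 5 basement membrane collagens, 9 laminin chains, 3 neuronal chains, 4 beaded filament and network collagens, 4 fibril-associated collagens and 1 other chain, *Col26a1*. Of 56 chains in the lists used here 21 were not analysed here, *Col3a1*, *Col2a1*, *Col4a3*, *Col6a3* and *Lama1* among them. *Col4a3bp*, the gene of a ceramide transfer protein, has a similar symbol and is no member.

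Collagens are trimers whose chains wind into a triple helix, which needs a glycine in each triplet of residues, always in the same place. Fibrillar collagens pack side by side into fibrils, and in the brain they are made mainly by fibroblasts of the meninges and around vessels. Laminins are cross-shaped trimers of an alpha, a beta and a gamma chain that form, with the collagen IV network, the basement membranes under the endothelium, around pericytes and at the pial surface, while a few collagens are made by neurons themselves.

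The glycine repeat and an interruption of it are shown on 3 stretches of 24 codons of coding sequence (GENCODE release M21 transcripts, GRCm38), whose positions were picked for this and do not compare run lengths. Capitals mark each glycine codon (GGN) of the reading frame. The *Col1a1* stretch is codons 168 to 191, at the start of its longest run, the *Col25a1* stretch is codons 189 to 212, also at the start of its longest run, and the *Col4a1* stretch is codons 151 to 174, across the end of its longest run.
Col1a1: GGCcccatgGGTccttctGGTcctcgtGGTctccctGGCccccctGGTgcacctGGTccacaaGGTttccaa
Col25a1: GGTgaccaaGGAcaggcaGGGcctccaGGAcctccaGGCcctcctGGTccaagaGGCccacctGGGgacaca
Col4a1: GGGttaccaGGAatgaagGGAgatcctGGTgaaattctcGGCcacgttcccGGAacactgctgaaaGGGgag
In the fibrillar chain *Col1a1* and the transmembrane neuronal chain *Col25a1* all 8 triplets of the stretch open with glycine. In *Col4a1* the spacing changes after the fourth glycine codon, and 7 of the 24 codons are glycine.

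Over the whole coding sequence, the longest unbroken run was 337 to 339 triplets in 7 fibrillar chains, and 216 and 217 triplets in *Col24a1* and *Col27a1*. The collagen IV chains were broken up instead. *Col4a1* had a longest run of 40 triplets and 18 runs of at least 10, *Col4a2* had 66 and 18, and *Col4a5* had 42 and 17. Of the neuronal chains, *Col25a1* reached 40 triplets, *Col23a1* 43 and *Col19a1* 57. No laminin chain had a run above 3 triplets.

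**Figure D1:**
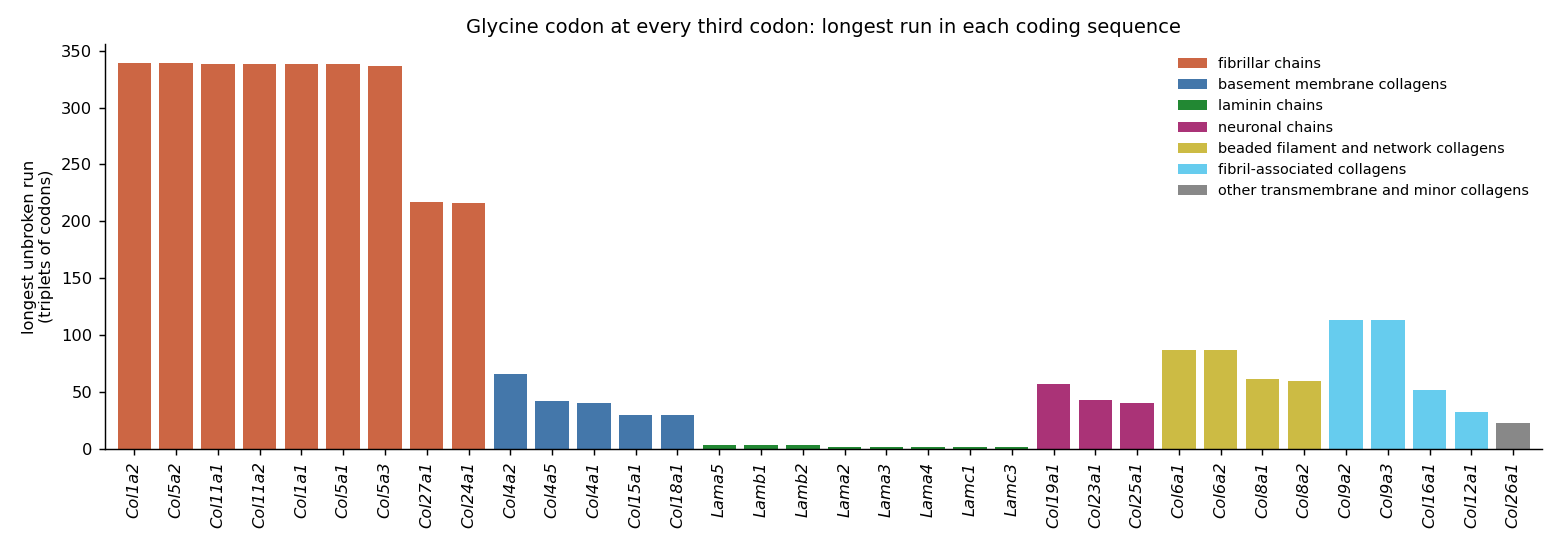
Longest unbroken run of triplets that open with a glycine codon (vertical axis, number of triplets) in the coding sequence of 34 of the 35 members, with bars coloured by group. The 7 tallest fibrillar chains stand at 337 to 339 triplets, the collagen IV chains at 40 to 66, and the laminins at 2 or 3.

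*Col4a1* and *Col4a2*, the chains of the most widespread collagen IV trimer, lie head to head on chromosome 8 and share the bases at which they start. The 30 bases around both starts are chr8:11312801-11312830 (GRCm38, plus strand), with the 22 bases that both annotated genes cover in capitals.
Col4a1 and Col4a2 starts: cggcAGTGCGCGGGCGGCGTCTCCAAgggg
The annotated start of *Col4a2* (plus strand) is 11312805 and that of *Col4a1* (minus strand) is 11312826. Whether reads were counted by strand was not given in the sources used here, so reads over these 22 bases could belong to either gene. RefSeq promoters (GRCm38.p6, 250 bases before to 50 after the start) were found for 25 of the 35 members, 27 promoters in all. The letters GGGCGG, searched on both strands, were in 77.8% of these promoters and in 35.7% of all 32851 promoters. CCAAT was in 37.0% and 37.4%. TATAAA was in 1 member promoter (3.70%), that of *Col11a2*, and in 13.6% of all. These are matches of letters and not mapped sites.

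Expression is given as FPKM, a level scaled to the length of the transcript and to the mapped fragments of the library, as deposited by the authors, and the sum over all genes was 216651 to 227439 FPKM per library. *Elavl4* was at 34.2, 30.4 and 28.3 FPKM in control replicates 1, 2 and 3 and at 1.70, 1.07 and 1.52 FPKM in HuD KO replicates 1, 2 and 3, so every library matched its label. The cortical marker *Slc17a7*, a vesicular glutamate transporter, was at 95.4 to 217 FPKM in all 6. Libraries of the same genotype were not alike, however. The study's methods exclude 1 HuD KO library as an outlier, and its second table leaves out HuD KO replicate 2, so the comparison was made over 5 libraries and again over 6. Control replicate 3 held hypothalamic markers, with a summed level of 278 FPKM over 5 genes against 0.882 to 3.49 FPKM in the others, and *Pmch*, a hypothalamic neuropeptide gene, at 127 FPKM. Choroid plexus markers summed to 301 FPKM in control replicate 3, 162 FPKM in HuD KO replicate 1 and 89.6 FPKM in HuD KO replicate 3, and to 3.27 to 6.50 FPKM in the other 3. Most of the high sums came from *Ttr*, at 287, 157 and 86.5 FPKM in that order. Every other marker of that list was at most at 4.83, 1.44 and 0.931 FPKM there. No counts are given, so depth is unknown, and p-values measure the spread between these libraries.

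Collagen and laminin mRNAs were scarce in the neocortex. The highest was *Col6a1*, a chain of collagen VI beaded filaments, with a mean of 10.5 FPKM over the 6 libraries, followed by *Col4a2* with 7.90 FPKM and *Col4a1* with 6.32 FPKM. The most abundant laminin was *Lamb2* with 4.76 FPKM, the most abundant fibrillar chain *Col5a1* with 4.28 FPKM and the most abundant neuronal chain *Col19a1* with 3.22 FPKM. *Col5a3* and *Col5a2*, both chains of collagen V, were lowest with 0.439 and 0.473 FPKM. No member was listed at 0 in any library. Summed over the 35 members, the level was 78.9, 72.8 and 86.4 FPKM in control replicates 1, 2 and 3 and 73.4, 103.1 and 61.9 FPKM in HuD KO replicates 1, 2 and 3. HuD KO libraries were thus both the highest and the lowest of the 6.

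**Figure D2:**
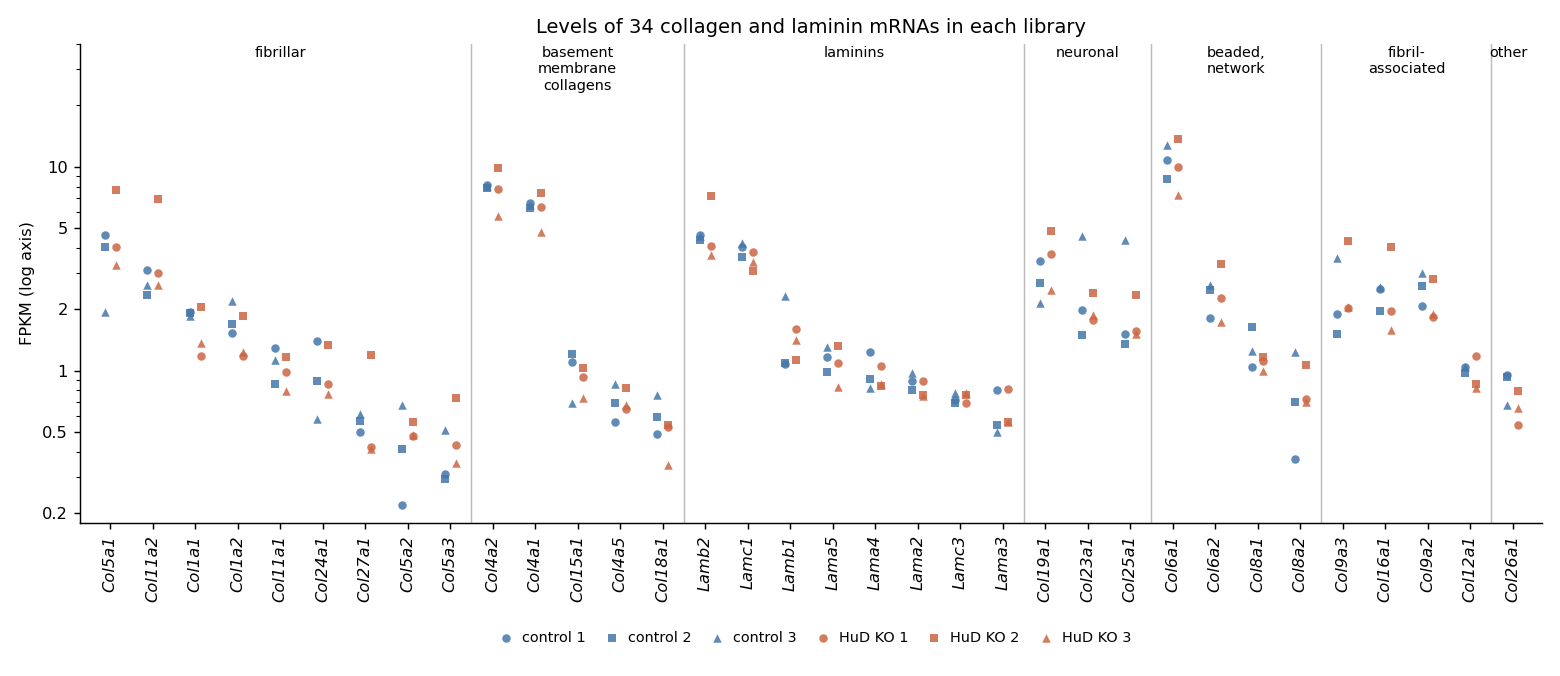
FPKM (log axis) of 34 of the 35 members in each library, with controls in blue and HuD KOs in orange, 1 marker shape per replicate number, and members ordered by mean level within their group. *Col6a1* is highest at 7.24 to 13.6 FPKM. HuD KO replicate 2 stands above the other 5 libraries for 14 members, as it does for 4359 of all 13299 genes. Control replicate 3 stands apart in the neuronal chains *Col23a1* and *Col25a1*.

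The members were compared between genotypes to see whether loss of HuD goes with other levels of extracellular matrix mRNAs. None of them changed by the threshold used, and most were slightly lower in the 2 HuD KOs retained. *Col5a2* and *Col5a3* had a mean under 0.5 FPKM and were not tested, which left 33. Over 5 libraries, limma on log2(FPKM + 1) with Benjamini-Hochberg adjustment passed 0 of 33 members at an adjusted p under 0.05, where it passed 0.0457% of all 13121 genes tested (6 genes), and the adjusted p of the members was 0.995 to 0.996. At an unadjusted p under 0.05 were 2 members, *Col1a1* and *Col1a2*, beside 3.43% of all genes. Over 6 libraries 0 of 33 passed (0.0305% of all 13114 genes), and 0 were at an unadjusted p under 0.05 (3.48% of all genes). The tests limit a change only loosely, since the median standard error of a member's log2 fold change was 0.13 over 5 libraries and 0.16 over 6.

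The direction of the small differences depended on the libraries. Over 5 libraries 27 of 33 members were lower in HuD KOs and 6 were higher, with a median log2 fold change of -0.14, beside 55.5% lower and a median of -0.02 over all genes. For 7 members (21.2%) both HuD KOs lay below all 3 controls, which held for 11.0% of all genes. These were *Col1a1*, *Col1a2*, *Col4a2*, *Lamb2*, *Col9a2*, *Col26a1* and *Col27a1*, and 0 members lay above all controls, beside 8.20% of all genes. With HuD KO replicate 2 added, 20 members were lower and 13 higher, and the median was -0.05. Then 0 members lay below all controls (5.70% of all genes) and 0 above (4.43%). Since the tissue is bulk cortex, fewer cells of a type and less RNA per cell cannot be told apart.

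Single libraries moved these counts. HuD KO replicate 3 was below the mean of the other 5 libraries for 30 of 33 members. It was above that mean for 0 of 24 collagens, beside 5836 of 12994 genes. It was the lowest library for 13 of the 35 members, beside 1821 of all 13299 genes. Without it the median log2 fold change was -0.05, with 25 members lower and 8 higher, and in limma 1 member, *Col1a1*, was at an unadjusted p under 0.05. Without HuD KO replicate 1, 32 of 33 were lower, and the members at an unadjusted p under 0.05 were *Col4a2* (log2 fold change -0.43) and *Col4a1* (-0.36) in place of the chains of collagen I. Without control replicate 3 there were 4 of 31 members tested, among them *Col1a1*, *Col26a1* and, higher in HuD KOs, *Lamb1*. Without control replicate 1 there were 3 of 34 tested. For the fits with a library left out, the share of all genes below 0.05 is not given here. These counts therefore cannot be set beside a background. The smallest adjusted p of a member in any of these limma fits was 0.649.

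**Figure D3:**
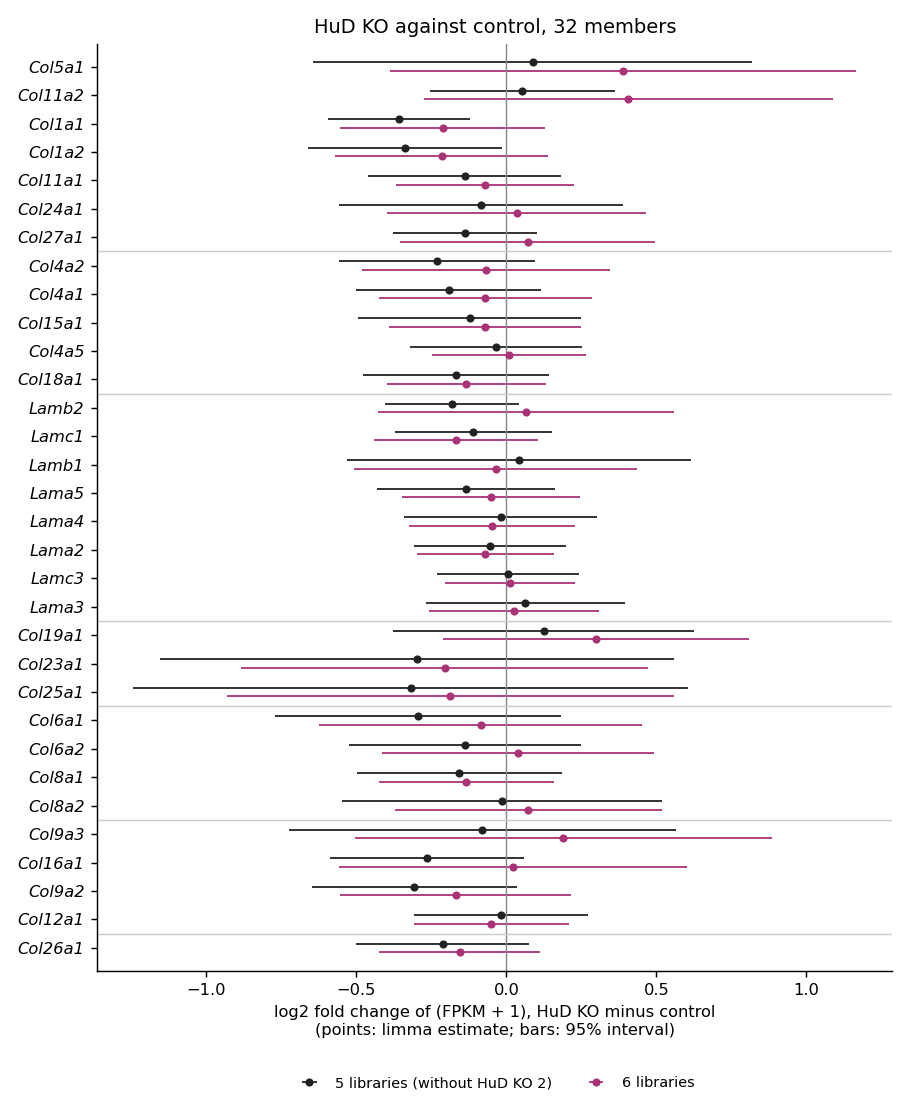
Log2 fold change of FPKM + 1, HuD KO minus control (horizontal axis), of 32 of the 33 members tested, as the limma estimate with its 95% interval, over 5 libraries (black) and 6 libraries (magenta). Over 5 libraries 26 points lie left of 0, and the intervals of *Col1a1* and *Col1a2* alone do not reach 0. Over 6 libraries every interval drawn includes 0.

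Of the fibrillar chains, the 2 chains of collagen I, the main fibril former of meninges and vessel walls, were lower in both retained HuD KOs than in any control, and collagens V and XI were not. *Col1a1* (alpha 1 chain of collagen I, chr11:94936224-94953042 in mm10) was at 1.95, 1.91 and 1.85 FPKM in controls and at 1.18, 2.06 and 1.36 FPKM in HuD KO replicates 1, 2 and 3. The 3 controls nearly coincided, HuD KO replicates 1 and 3 lay below them, and replicate 2 lay above. Its mean was 1.90 ± 0.052 FPKM in controls (SD, n = 3) and 1.27 ± 0.132 FPKM in HuD KOs (SD, n = 2), a log2 fold change of -0.36 (95% interval -0.59 to -0.12, limma, unadjusted p = 0.0108, adjusted p = 0.995). Over 6 libraries it was -0.21 (-0.55 to 0.13). *Col1a2* (alpha 2 chain, chr6:4504814-4541544) was at 1.53, 1.69 and 2.19 FPKM in controls and at 1.18, 1.85 and 1.23 FPKM in HuD KOs. Here too replicate 2 alone among the HuD KOs reached the controls. Its log2 fold change was -0.34 (-0.66 to -0.02, limma, unadjusted p = 0.0428, adjusted p = 0.995), and -0.22 (-0.57 to 0.14) over 6 libraries.

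Collagens V and XI, minor collagens that set the width of fibrils, held both the most abundant fibrillar mRNAs, *Col5a1* and *Col11a2*, and the least abundant, *Col5a2* and *Col5a3*. *Col5a1* (chr2:27886425-28039514) was at 4.64, 4.06 and 1.94 FPKM in controls and at 4.05, 7.69 and 3.28 FPKM in HuD KOs. The lowest value came from control replicate 3 and the highest from HuD KO replicate 2, and its log2 fold change of 0.09 (-0.64 to 0.82) became -0.20 without control replicate 3. *Col11a2* (chr17:34039437-34066685), a collagen XI chain best known from cartilage, was at 3.11, 2.35 and 2.63 FPKM in controls and at 3.01, 6.97 and 2.64 FPKM in HuD KOs. Apart from HuD KO replicate 2 its libraries fully overlapped, with a log2 fold change of 0.05 (-0.26 to 0.36), and with that replicate it was 0.41 (-0.28 to 1.09). *Col11a1* (chr3:114030540-114220718), the partner chain of collagen XI, was at 1.29, 0.857 and 1.12 FPKM in controls and at 0.991, 1.17 and 0.796 FPKM in HuD KOs, and the groups overlapped. *Col24a1* (chr3:145292472-145552011), a minor fibrillar collagen, was at 1.40, 0.891 and 0.577 FPKM in controls and at 0.862, 1.33 and 0.771 FPKM in HuD KOs. Controls alone spanned the whole range of its values. *Col27a1* was at 0.501 to 0.611 FPKM in controls and at 0.424 and 0.412 FPKM in HuD KO replicates 1 and 3, but at 1.19 FPKM in replicate 2. *Col5a2* and *Col5a3*, which were not tested, were at 0.218 to 0.731 FPKM with overlapping groups. Over the 7 fibrillar chains tested the median log2 fold change was -0.14 with 5 lower, and 0.03 with 3 lower when HuD KO replicate 2 was included.

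Markers of meningeal fibroblasts, the main makers of collagen I around the brain, were lower in HuD KOs as well. All 13 markers tested (13 of 14 listed) had a negative log2 fold change over 5 libraries (median -0.41), beside 55.5% of all genes. In limma 5 were at an unadjusted p under 0.05, beside 3.43% of all genes, and 0 at an adjusted p under 0.05. Over 6 libraries all 13 were lower as well (median -0.46), beside 52.4% of all genes. There limma placed 8 at an unadjusted p under 0.05, beside 3.48% of all genes, and 0 at an adjusted p under 0.05. The summed level of the markers was 53.2, 55.0 and 94.6 FPKM among controls and 39.7, 30.7 and 45.6 FPKM among HuD KOs, and none was listed at 0. *Col1a1* did not follow this sum in every library. It was at 1.85 FPKM in control replicate 3, where the sum was highest. In HuD KO replicate 2, where the sum was lowest, *Col1a1* reached 2.06 FPKM, its highest value. *Col1a2* had its highest value, 2.19 FPKM, in control replicate 3, and was at 1.85 FPKM in HuD KO replicate 2. The part of these cells in the lower collagen I mRNAs was not tested.

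The basement membrane collagens were lower in HuD KOs for 5 of 5 chains over 5 libraries, with a median log2 fold change of -0.17, and for 4 of 5 with a median of -0.07 over 6. *Col4a2* (chr8:11312805-11449287) was at 8.11, 7.89 and 8.06 FPKM in controls and at 7.79, 9.82 and 5.70 FPKM in HuD KOs. *Col4a1* (chr8:11198423-11312826) was at 6.64, 6.25 and 6.50 FPKM in controls and at 6.35, 7.41 and 4.80 FPKM in HuD KOs. For both chains the controls lay close together, HuD KO replicate 1 lay within their range or just below it, replicate 2 was the highest library and replicate 3 the lowest. The log2 fold change was -0.23 (-0.56 to 0.09) for *Col4a2* and -0.19 (-0.50 to 0.11) for *Col4a1*, and without HuD KO replicate 3 it was -0.04 and -0.02. *Col4a5*, an X-linked chain of a second collagen IV network, was at 0.562 to 0.863 FPKM. *Col15a1* and *Col18a1*, which link basement membranes to the matrix around them and release endostatin-like fragments, were at 0.698 to 1.21 FPKM and at 0.343 to 0.762 FPKM. In these 3 chains the genotypes overlapped. Endothelial markers were lower for 10 of 12 genes (median -0.08) and markers of pericytes and smooth muscle for 9 of 10 (median -0.11). Of all genes 55.5% were lower. Markers of some other cells were lower as well, 6 of 7 for astrocytes (median -0.05) and 5 of 6 for microglia (median -0.15). Of the oligodendrocyte markers 0 of 7 were lower (median 0.15). Of the excitatory neuron markers 2 of 10 were lower (median 0.32), and of the interneuron markers 5 of 9 (median -0.05). The part of vessel cells in the values of the basement membrane genes was not tested.

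Of the laminin chains 6 of 9 were lower (66.7%, median log2 fold change -0.06) over 5 libraries, beside 55.5% of all genes, and 6 of 9 (median -0.05) over 6, beside 52.4%. *Lamb2* (beta 2 chain of vascular and synaptic laminins, chr9:108479736-108490530) was at 4.63, 4.39 and 4.60 FPKM in controls and at 4.09, 7.15 and 3.69 FPKM in HuD KOs. HuD KO replicates 1 and 3 were below every control and replicate 2 was far above, so that its log2 fold change of -0.18 (-0.41 to 0.04) was 0.06 (-0.43 to 0.56) with replicate 2. *Lamc1* (gamma 1 chain, shared by most laminins, chr1:153218922-153332786) was at 4.05, 3.60 and 4.25 FPKM in controls and at 3.80, 3.08 and 3.39 FPKM in HuD KOs. In contrast to *Lamb2*, its lowest library was HuD KO replicate 2, and its log2 fold change was -0.11 (-0.37 to 0.15) over 5 libraries and -0.17 (-0.44 to 0.11) over 6.

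*Lamb1* (beta 1 chain, chr12:31265234-31329644) was at 1.07, 1.10 and 2.31 FPKM in controls and at 1.60, 1.13 and 1.41 FPKM in HuD KOs. Control replicate 3 was at 1.83 times the mean of the other 5 libraries, and without it all HuD KOs were above the remaining controls. The log2 fold change of *Lamb1* was 0.04 (-0.53 to 0.61) over 5 libraries, -0.04 over 6, and 0.26 (0.01 to 0.52, limma, unadjusted p = 0.0436, adjusted p = 0.778) without control replicate 3. The alpha chains *Lama5* and *Lama4*, both of endothelial basement membranes, *Lama2*, an alpha chain of glial and pericyte basement membranes, and *Lama3*, known from epithelia, were at 0.502 to 1.32 FPKM, and *Lamc3* was at 0.692 to 0.781 FPKM. Their log2 fold changes lay between -0.13 and 0.06.

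The neuronal chains were set apart by control replicate 3 rather than by genotype. *Col25a1* (chr3:130131501-130599877), a transmembrane collagen of neurons that in Alzheimer's disease is found in amyloid plaques, was at 1.51, 1.35 and 4.37 FPKM in controls and at 1.57, 2.34 and 1.51 FPKM in HuD KOs. *Col23a1* (chr11:51289920-51583918), another transmembrane collagen, was at 1.99, 1.50 and 4.59 FPKM in controls and at 1.77, 2.41 and 1.87 FPKM in HuD KOs. Control replicate 3 was at 2.64 and 2.41 times the mean of the other 5 libraries for these chains, and the other libraries of both genotypes overlapped. *Col19a1* (chr1:24261890-24587472), a collagen made by interneurons of cortex and hippocampus, went the other way in control replicate 3, with values of 3.46, 2.69 and 2.14 FPKM among controls and of 3.72, 4.83 and 2.48 FPKM among HuD KOs. There control replicate 3 was the lowest library, at 0.623 times the mean of the others, and HuD KO replicate 2 the highest.

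Log2 fold changes over 5 libraries were -0.32 (-1.24 to 0.61) for *Col25a1*, -0.30 (-1.15 to 0.56) for *Col23a1* and 0.12 (-0.38 to 0.62) for *Col19a1*. Without control replicate 3 those of *Col25a1* and *Col23a1* were 0.06 and 0.05. This library had the hypothalamic markers described above, and the median deviation of 10 markers of cortical excitatory neurons from the other 5 libraries was -0.61 on the log2 scale. Besides *Col19a1*, the chains *Col5a1* (0.409 times the mean of the others) and *Col24a1* (0.548 times) were low in it. The part of non-cortical tissue in these values was not tested.

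For each of the remaining collagens except *Col12a1* (0.821 to 1.19 FPKM), HuD KO replicate 2 was the highest of the HuD KOs. *Col6a1*, named here as the highest member, was at 10.8, 8.70 and 12.8 FPKM in controls and at 9.92, 13.6 and 7.24 FPKM in HuD KOs, with overlapping groups. Its partner *Col6a2* was at 1.73 to 3.33 FPKM. The network-forming *Col8a1* and *Col8a2* were at 0.369 to 1.63 FPKM. All 4 beaded filament and network chains were lower over 5 libraries (median -0.15) and 2 of 4 over 6. The 4 fibril-associated chains, which sit on the surface of fibrils, were also lower over 5 libraries (median -0.17) and 2 of 4 over 6. Of these *Col9a2*, a collagen IX chain, was at 2.06, 2.62 and 3.01 FPKM in controls and at 1.84, 2.81 and 1.89 FPKM in HuD KOs. *Col16a1* was at 1.96 to 2.57 FPKM in controls and at 1.96, 4.04 and 1.59 FPKM in HuD KOs. *Col26a1* was at 0.955, 0.936 and 0.682 FPKM in controls and at 0.543, 0.798 and 0.659 FPKM in HuD KOs. Without replicate 2, the HuD KOs lay below every control for *Col9a2* and *Col26a1*, and for *Col16a1* replicate 1 lay level with control replicate 2.

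HuD KO replicate 2 was above the mean of the other 5 libraries for 26 of 33 members and for 22 of 24 collagens, beside 6529 of 12994 genes. This library differed from the rest by the base composition of transcripts. Across 12994 genes with a transcript in GENCODE, its deviation from the other libraries went with GC content (Spearman's rho = 0.573), where each of the other 5 had a rho of -0.31 to -0.07. The genes are not independent replicates. The members are rich in GC, with a median of 57.7% against 50.6% over all genes and 29 of 35 above the median of the table. They also have long transcripts, with a median length of 5784 bases against 3046. Across the 12994 genes the deviation of HuD KO replicate 2 went down with transcript length (Spearman's rho = -0.163). The GC trend of each library was then removed, an alternative chosen after seeing the data. HuD KO replicate 2 was then above the others for 15 of 33 members and 12 of 24 collagens, beside 6707 of 12994 genes. The median deviation of the members went from 0.17 to -0.02.

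Some chains stayed high in HuD KO replicate 2 after that removal. The deviation of *Col5a1* went from 0.96 to 0.67 on the log2 scale, that of *Col19a1* from 0.60 to 0.56 and that of *Col11a2* from 1.09 to 0.55. For *Col4a1* it went from 0.25 to -0.02, for *Col4a2* from 0.36 to -0.04 and for *Col1a1* from 0.22 to -0.10. *Lamc1* and *Lamb1*, of lower GC content (53.0% and 52.5%), were low in this library before and after, at -0.24 and -0.21 and then at -0.32 and -0.27. With the trend removed, limma over 6 libraries gave a log2 fold change of -0.31 for *Col1a1* (-0.53 to -0.09, unadjusted p = 0.0117, adjusted p = 0.892), with 26 of 33 members lower. *Col9a2* and *Col26a1* were the other members at an unadjusted p under 0.05 there, at -0.33 and -0.28.

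**Figure D4:**
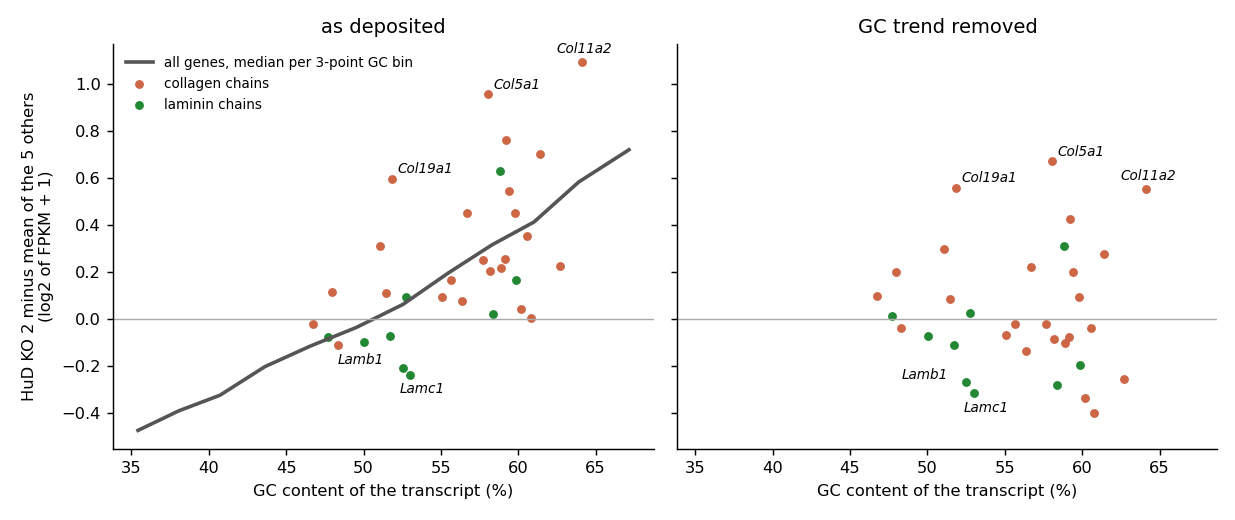
Deviation of HuD KO replicate 2 from the mean of the other 5 libraries (log2 of FPKM + 1) against the GC content of the transcript (%), for 24 collagen chains (orange) and 9 laminin chains (green), with the median of all genes per GC bin as a line. As deposited (left) 26 of the 33 points lie above 0, and with the GC trend removed (right) 15 do, *Col5a1*, *Col19a1* and *Col11a2* highest.

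Chains that are built into the same trimer, and 2 alternative beta chains of laminins, were compared within each library, where scaling cancels. A trend of a library on GC content does not cancel where the chains differ in it. GC content was 52.5% in *Lamb1* and 58.8% in *Lamb2*, and 57.7% in *Col4a1* and 60.6% in *Col4a2*. *Col4a1* and *Col4a2* kept nearly the same ratio, 0.819, 0.792 and 0.806 in controls and 0.815, 0.754 and 0.841 in HuD KOs, a range of 1.11-fold, while the level of *Col4a2* went from 5.70 to 9.82 FPKM. The ratio of *Col1a1* to *Col1a2* was 1.27, 1.13 and 0.844 among controls and 0.998, 1.12 and 1.10 among HuD KOs. It ranged 1.51-fold, and control replicate 3 was lowest. The alternative beta chains *Lamb1* and *Lamb2* ranged 3.18-fold, with a ratio of 0.232, 0.250 and 0.502 in controls and 0.392, 0.158 and 0.383 in HuD KOs. In 2-sided exact permutation tests over 5 libraries p was 0.4, 1 and 0.6 for the 3 ratios in this order, and 0.9, 1 and 1 over 6. The smallest p these designs allow is 0.2 and 0.1, so no difference could have passed at 0.05. Chosen after values were seen, *Col6a1* to *Col6a2* ranged from 3.48 to 5.92 and *Col9a2* to *Col9a3* from 0.648 to 1.73.

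**Figure D5:**
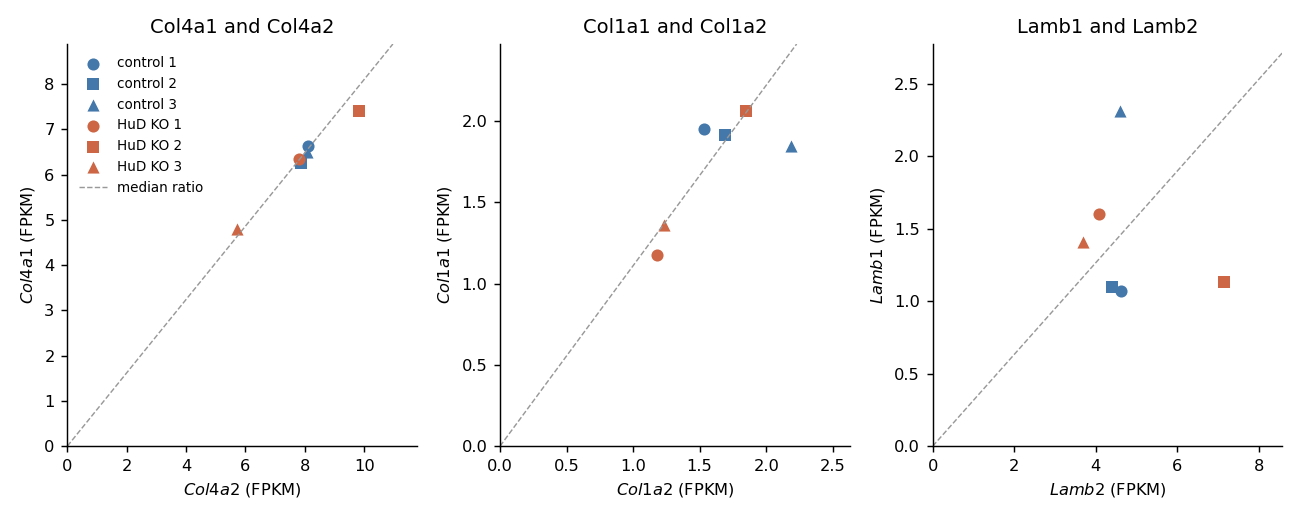
FPKM in each library of *Col4a1* against *Col4a2*, *Col1a1* against *Col1a2*, and the alternative beta chains *Lamb1* against *Lamb2* (controls blue, HuD KOs orange, 1 shape per replicate number). The dashed line is the median ratio of the 6 libraries. The *Col4a1* points stay near the line at 0.754 to 0.841, and those of *Lamb1* scatter from 0.158 to 0.502.

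Genes that fold, cut and cross-link collagen differed in the same direction as the chains, without passing the test. Of 30 such genes 25 were tested. Over 5 libraries 21 were lower in HuD KOs (84.0%, median log2 fold change -0.13), beside 55.5% of all genes. In limma 0 were at an adjusted p under 0.05, and 1 of the 25 was at an unadjusted p under 0.05, beside 3.43% of all genes. That 1 was *P3h3*, a prolyl 3-hydroxylase family member of the endoplasmic reticulum, at 3.36, 3.64 and 3.73 FPKM in controls and at 2.86, 3.43 and 2.52 FPKM in HuD KOs, with a log2 fold change of -0.31 (limma, unadjusted p = 0.0210, adjusted p = 0.995). Next by p came *Pcolce*, an enhancer of procollagen cleavage (-0.24), *Loxl1*, a lysyl oxidase that cross-links fibrils (-0.23), and *P3h4*, which works in a complex with *P3h3* (-0.15). Over 6 libraries 17 of 24 were lower (70.8%, median -0.04), beside 52.4% of all genes. *P3h3* was then at -0.22 (-0.51 to 0.07, limma, adjusted p = 0.871), and the 1 gene at an unadjusted p under 0.05 was *Pcolce* at -0.31 (limma, unadjusted p = 0.0274, adjusted p = 0.871).

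The other components of basement membranes had 9 of 12 genes lower over 5 libraries (75%, median -0.13), beside 55.5% of all genes. In limma 0 were at an unadjusted p under 0.05, beside 3.43% of all genes. *Nid1* and *Nid2*, the nidogens that join laminin to collagen IV, had log2 fold changes of -0.21 and -0.21, the secreted matrix protein gene *Tinagl1* of -0.23 and *Smoc2*, a calcium-binding relative of *Sparc*, of 0.20. *Nid1* was at 1.33, 1.32 and 1.62 FPKM in controls and at 1.15, 0.851 and 1.03 FPKM in HuD KOs, so that all HuD KOs lay below all controls (over 6 libraries -0.27, limma, unadjusted p = 0.0457, adjusted p = 0.871). Over 6 libraries 8 of the 12 components were lower (66.7%, median -0.10), beside 52.4% of all genes. *Nid1* was then the 1 component at an unadjusted p under 0.05 in limma, beside 3.48% of all genes. *Sparc*, a collagen-binding protein, was at 112 FPKM in control replicate 3 and at 27.7 to 32.2 FPKM elsewhere. Of 12 receptors of collagens and laminins tested 7 were lower (58.3%, median -0.06), beside 55.5% of all genes, and over 6 libraries 5 were lower and 7 higher (median 0.03). Over 5 libraries, at an unadjusted p under 0.05, limma placed 0 of them. The 4 of smallest p were *Ddr2*, a collagen receptor kinase (-0.21), *Itga3*, the integrin alpha 3 subunit of laminin receptors (-0.23), the myelin glycoprotein gene *Mag* (0.13) and *Bcam*, a receptor of laminin alpha 5 (-0.10).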

How the data were processed

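Paired-end libraries of neocortical RNA from 3 controls and 3 HuD KOs were analysed. The submitters' processing notes name FastQC 0.11.5 for read quality, cutadapt and Trimmomatic for trimming, and STAR 2.7.3a with the mm10 genome for alignment. The FPKM values were computed by the authors, and the quantification program was not given in the sources used here. Both tables as deposited gave equal FPKM for the 5 libraries they share. In each, 1 line of sums that names no gene was left out, and the authors' own comparison (log2 means, fold changes, p and q values) was not used. In all 13299 genes the mean of 1 genotype reached 0.5 FPKM, so lower genes were not analysed here. Depth is unknown, so no counting error can be attached to a value.

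Genes whose mean reached 0.5 FPKM in the libraries compared were fitted on log2(FPKM + 1) with limma 3.58.1 (lmFit, eBayes with a trend) in R 4.3.3, HuD KO against control, with Benjamini-Hochberg adjustment over all genes tested and a threshold of 0.05. A log2 fold change on this scale understates the change of genes of low FPKM. The fit was tested on simulated data. Ratios were compared by exact permutation tests (SciPy 1.17.1, Python 3.11.15, NumPy 2.4.6, pandas 2.3.3), and plots made in matplotlib 3.10.9. Coding sequences and GC content came from GENCODE release M21, whose gene positions were equal to those of the table for all 35 members.

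Members, groups and lists were chosen with earlier results of these data known. Values per library were given for the 6 fibrillar chains of highest mean, the 6 highest basement membrane collagens and laminins, the 3 neuronal chains and any member at an unadjusted p under 0.05 over 5 or 6 libraries, and up to 4 genes of smallest p were named in each list of partners. One member is counted in the totals and is not reported here by itself. *Col6a1*, *Col9a2*, *Col16a1*, *Col26a1*, *Col27a1*, *Sparc*, *Pmch*, *Ttr* and *Slc17a7* were chosen for naming once values were seen. Alternatives were 6 libraries, 0.1 as pseudocount, every gene tested or only those whose mean reached 2 FPKM, scaling to a common median, quantile normalization, eBayes with no trend, the replicate number as a block, leaving out each library and, added after seeing the data, removal of the trend on GC content.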

Additional observations from a re-analysis of the deposited data

How the results depend on the processing

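The count of members at an adjusted p under 0.05 in limma stayed at 0 under every alternative run, and that at an unadjusted p under 0.05 was 2 over 5 libraries. It was 0 over 6 libraries and among genes whose mean reached 2 FPKM, and 1 to 4 with 1 library left out. The median log2 fold change of all members was -0.051 over 6 libraries, -0.22 with a pseudocount of 0.1, and -0.17 to -0.046 with 1 library left out. That of the fibrillar chains was 0.035 over 6 libraries, -0.25 with a pseudocount of 0.1, 0.070 where the mean reached 2 FPKM, -0.034 over 6 libraries with the GC trend removed, and -0.22 to -0.062 with 1 library left out. That of the basement membrane collagens was -0.071 over 6 libraries and -0.26 to -0.044 with 1 left out, that of the laminins -0.18 where the mean reached 2 FPKM, and that of the neuronal chains -0.53 to 0.047 with 1 left out. Among the members whose values were given per library, signs turned over 6 libraries for *Col24a1* (0.035), *Lamb1* (-0.035) and *Lamb2* (0.065), and with the GC trend removed as well for *Col24a1* (0.044) and *Lamb1* (-0.047). Of the other members, *Col4a5*, *Col6a2*, *Col8a2*, *Col9a3*, *Col16a1* and *Col27a1* turned from lower to higher over 6 libraries (0.0089 to 0.19). With the GC trend removed as well, *Col4a5* (0.012) and *Col9a3* (0.085) were higher, and *Lamc3* turned from higher to lower (-0.079). With 1 library left out, signs turned among the former for *Col24a1* (-0.23 to 0.073), *Lamb1* (-0.073 to 0.26), *Col11a2* (-0.018 to 0.13), *Col23a1* (-0.53 to 0.047), *Col25a1* (-0.53 to 0.062), *Col5a1* (-0.20 to 0.27) and *Col19a1* (-0.095 to 0.34). Of the other members 1 to 4 turned in each of these fits. The cause of these turns was not tested. Scaling to a common median, quantile normalization, eBayes with no trend and testing every gene turned no sign among the members given per library, while scaling to a common median turned 3 of the others and quantile normalization 4, all to at most 0.025.

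Correlations of deviations between libraries of the same replicate number were -0.122, 0.183 and 0.0424, so the numbers were not taken as pairs. With the replicate number as a block, 0 members were at an unadjusted p under 0.05 over 5 and over 6 libraries, 30 of 33 were lower over 5, and *Col11a2* (-0.016) and *Lamb1* (-0.065) turned sign over 5, as did *Lamc3* (-0.0099). Over 6 libraries the block left the values as they were without it (medians of -0.051 for all members, 0.035 for fibrillar chains and -0.071 for basement membrane collagens, and *Col24a1* at 0.035, *Lamb1* at -0.035 and *Lamb2* at 0.065). The 3 against 2 libraries limit what could be detected.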
